A study of Mus musculus with 8 samples.

Results

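The 45 genes described here act in DNA replication (18 genes) and in mitosis (27 genes). They were taken by symbol from 32285 genes whose transcripts were counted per nucleus in hearts of adult mice, and all 45 had transcripts in each of the 5 libraries used. The 18 replication genes fall into the licensing helicase (Mcm2 to Mcm7), the helicase partner, primase, polymerase and sliding clamp (Gins2, Prim1, Pola1, Pcna), licensing control (Dtl), nucleotide supply (Rrm1, Rrm2, Tyms) and chromatin or repair at forks (Uhrf1, Hells, Atad2, Brip1). The 27 mitosis genes fall into chromosome structure (Mki67, Top2a, Smc2, Smc4, Ncapg, Ncapg2, Hmgb2), kinetochore and checkpoint (Cenpe, Cenpf, Bub1, Bub1b, Knl1), spindle (Kif11, Kif15, Kif20b, Tpx2, Aspm, Aurka, Plk1, Nusap1), midzone and cytokinesis (Kif23, Prc1, Ect2, Anln, Aurkb, Birc5) and ubiquitylation at anaphase (Ube2c).

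Hearts were from both sexes and from mice labelled nTg (genotype WT- non Tg) or Tg (genotype Tg-ccna2, with constitutive expression of cyclin A2), with 8 libraries in 4 groups of 2, and RNA was read from nuclei of homogenized tissue. The labels give the age as adult, and the promoter that drives the transgene and the strain are not given in the sources used here. In 3 libraries (labelled nTg female 2, nTg male 1 and nTg male 2) the matrix held the same values as a library labelled Tg and had another number of columns than its own barcode list, so these 3 were not used. The 5 used carry the labels nTg female 1, Tg female (1 and 2) and Tg male (1 and 2), and values by library are given in this order throughout. Ccna2, the gene of the transgene, stood in cardiomyocytes at 444, 0.524, 827, 232 and 143 CPM (counts per 1000000 counts of a library's cardiomyocytes), which goes against the labels nTg female 1 and Tg female 1. Libraries are therefore named by their labels. Nothing in the labels says that libraries came from separate animals, so the p-values below refer to these libraries. In the sex test they measure the spread between libraries. The tests by type and by Ccna2 class had library as a block. Their p-values measure the spread left after each library's own level is taken out.

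Replication begins when the Mcm helicase, loaded on DNA in the first gap phase, is switched on and joined by the GINS complex, primase, polymerase alpha and the clamp Pcna, while ribonucleotide reductase and thymidylate synthase supply nucleotides. In mitosis, condensin (Smc2, Smc4, Ncapg, Ncapg2) and topoisomerase II alpha (Top2a) compact and untangle the chromosomes, kinetochores attach them to the spindle, and midzone proteins divide the cell. Adult mouse cardiomyocytes are known to have largely left the cell cycle, whereas resident macrophages and endothelial cells of the heart renew themselves slowly by division. Many replication genes carry an E2F site near their start, and many mitosis genes carry a cell-cycle homology region (CHR) together with CCAAT boxes.

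The promoters of 4 members are shown because the data below contrast them: Top2a, Mki67 and Dtl were rarely detected in nuclei with no other mitosis transcript and their share was far higher in nuclei with several, whereas Pola1 was also detected in many nuclei without them. Each line gives the 150 bases before the start of the gene, 5' to 3' on the gene's strand, from RefSeq on GRCm38.p6, with the matches to the CHR letters TTTGAA or TTCGAA, to CCAAT and to the E2F letters TTTCCCGC, TTTCGCGC, TTTGCCGC or TTTGGCGC, or to their reverse complements, in capitals. All 4 genes lie on the minus strand.
Top2a, chr11:99024190-99024339: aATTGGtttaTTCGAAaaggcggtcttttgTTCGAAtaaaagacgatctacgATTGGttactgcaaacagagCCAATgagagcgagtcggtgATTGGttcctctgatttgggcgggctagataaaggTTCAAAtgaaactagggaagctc
Mki67, chr7:135716380-135716529: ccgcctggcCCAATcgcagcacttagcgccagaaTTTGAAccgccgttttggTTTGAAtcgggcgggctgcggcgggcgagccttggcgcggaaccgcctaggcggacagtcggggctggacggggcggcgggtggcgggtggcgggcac
Dtl, chr1:191575545-191575694: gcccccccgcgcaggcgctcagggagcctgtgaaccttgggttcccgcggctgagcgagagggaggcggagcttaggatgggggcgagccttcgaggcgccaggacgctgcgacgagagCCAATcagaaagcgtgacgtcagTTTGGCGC
Pola1, chrX:93632156-93632305: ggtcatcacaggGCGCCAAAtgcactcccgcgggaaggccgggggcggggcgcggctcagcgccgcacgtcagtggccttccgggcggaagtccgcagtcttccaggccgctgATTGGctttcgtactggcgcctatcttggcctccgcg
In these windows Top2a had 3 CHR and 4 CCAAT matches, Mki67 had 2 CHR and 1 CCAAT match, and Dtl and Pola1 each had 1 CCAAT and 1 E2F match. RefSeq promoters were found for 39 of the 45 members, and both strands of the 250 bases before the start were searched, where matches of different motifs may overlap. A CHR match was present in 11 of 24 mitosis members (45.8%) and 2 of 15 replication members (13.3%), beside 17.4% of all 27025 promoters. The E2F letters were present in 2 of 24 mitosis members (8.33%) and 6 of 15 replication members (40%), beside 1.91% of all promoters. CCAAT was present in 17 of 24 and 13 of 15 members, beside 34.5% of all promoters. These are matches of letters and were not tested as sites.

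The 5 libraries held 25045167 to 38593706 transcript counts (unique molecular identifiers, UMIs), and 34224 nuclei were kept after filters and removal of called doublets. Pairs of libraries shared 14 to 28 cell barcodes. Clustering was done without the 45 members and without a wider list of cell-cycle genes, and 8 types had at least 50 nuclei in each library: 12198 fibroblast, 7100 endothelial, 6556 cardiomyocyte, 2560 macrophage, 2186 pericyte, 1343 endocardial, 764 lymphatic endothelial and 514 smooth muscle nuclei. The types are clusters named from marker lists, as fibroblast-like, macrophage-like and so on, and the suffix is left out below. The macrophage type joined a cluster of 2170 nuclei led by F13a1 and Mrc1 with 390 nuclei led by H2-Eb1, H2-Ab1 and Cd74, with Ccr2 also among their leading genes. In a coarser clustering 185 nuclei led by H2-Eb1, H2-Ab1 and Ccr2 were named dendritic. The members were not compared between these clusters. Median depth was 6984.5 UMIs in cardiomyocytes and 1936 to 2919.5 in the 7 other types. Transcripts of the cardiomyocyte marker list stood at 55157 CPM in cardiomyocytes and at 1266 to 2348 CPM in the other types.

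Among the 8 tested types, cardiomyocytes had the lowest level of both arms per UMI and macrophages the highest. The summed 27 mitosis genes stood in cardiomyocytes at 60.3, 72.6, 76.6, 75.0 and 62.0 CPM by library (mean 69.3 ± 7.60, SD, n = 5). In macrophages the same sum was 398, 423, 907, 802 and 427 CPM (592 ± 243), so that the libraries labelled Tg female 2 and Tg male 1 stood apart from the other 3. Between these ends lay lymphatic endothelial (358 ± 103 CPM), endocardial (356 ± 46.2), endothelial (286 ± 49.9), pericyte (237 ± 73.0), fibroblast (200 ± 22.7) and smooth muscle nuclei (162 ± 35.3). The libraries of neighbouring types in this order overlapped, except those of smooth muscle (127 to 221 CPM) and cardiomyocytes. In every library each of the 7 other types lay above the cardiomyocytes, by a mean of 2.33 times in smooth muscle to 8.37 times in macrophages. The sums are shares of a type's total counts, without the scaling used in the tests below. On such totals the median log2 difference of all genes was -0.58 in cardiomyocytes, -0.21 in smooth muscle and 0.04 in macrophages. The ratios include this shift of all genes and were not corrected for it.

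The summed 18 replication genes stood in cardiomyocytes at 81.7, 88.8, 106, 81.3 and 90.3 CPM (89.5 ± 9.82). Macrophages reached 379 ± 76.3 CPM, endothelial 322 ± 33.8, endocardial 277 ± 31.0, fibroblast 262 ± 14.4, pericyte 227 ± 33.2, lymphatic endothelial 216 ± 13.8 and smooth muscle nuclei 142 ± 23.1. The replication arm was thus spread over a narrower range, 1.59 to 4.22 times the cardiomyocyte level, and all 7 types lay above the cardiomyocytes in 5 of 5 libraries. Here too the libraries of neighbouring types overlapped, except those of lymphatic endothelial and smooth muscle nuclei and those of smooth muscle and cardiomyocytes. This order holds per UMI, and the ratios include the shift of all genes given above. Per nucleus, cardiomyocytes, with more UMIs each, held a mean of 0.688 replication and 0.539 mitosis UMIs, above pericytes (0.524 and 0.518) and smooth muscle (0.463 and 0.512). Lymphatic endothelial nuclei (0.551 and 0.925) were lower in replication UMIs alone. Fibroblast (0.727 and 0.552) and macrophage nuclei (0.932 and 1.45) were higher in both.

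**Figure D1:**
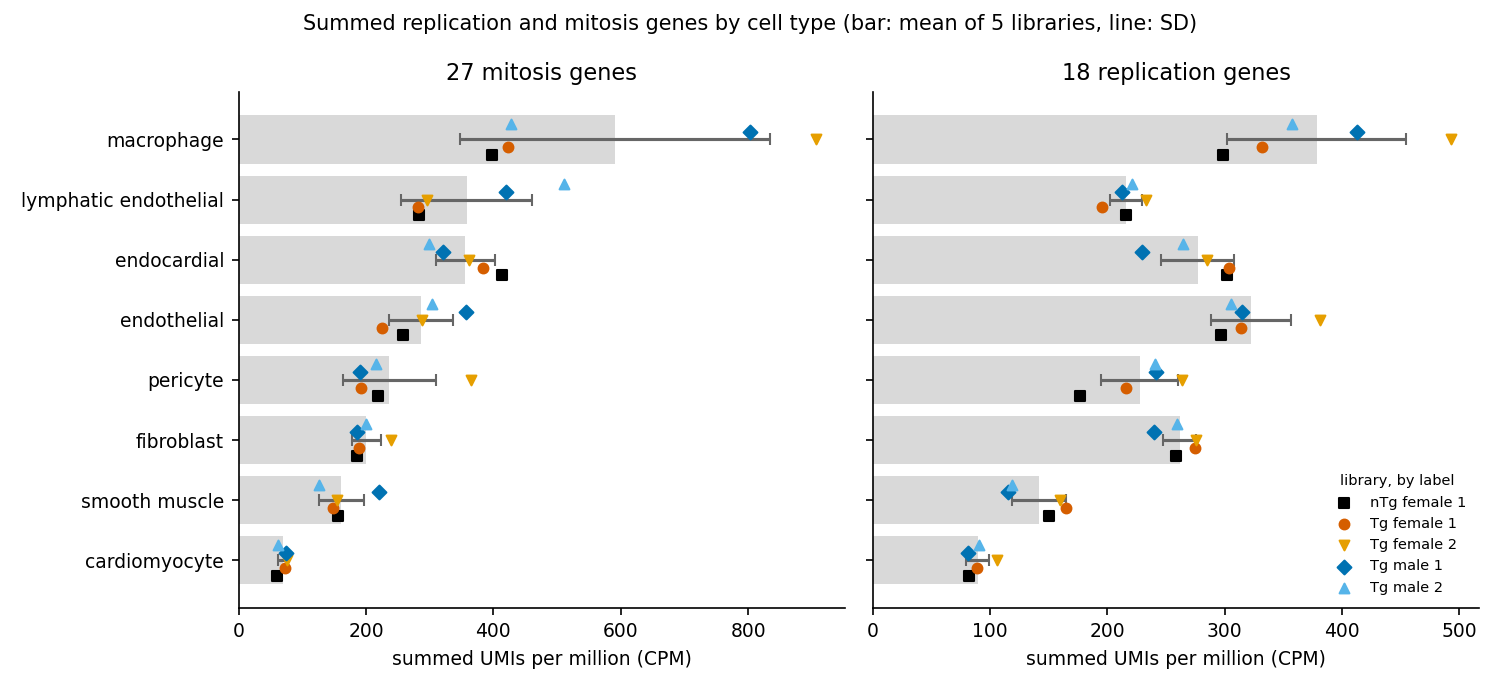
Summed CPM of the 27 mitosis genes (left) and the 18 replication genes (right) in 8 cell types; each point is a library named by its label, bars are means of 5 libraries and lines are SDs. The CPM are not corrected for the shift of all genes between types. Cardiomyocytes have the lowest mean in both panels, at 69.3 and 89.5 CPM, and macrophages the highest, at 592 and 379 CPM, with the libraries labelled Tg female 2 and Tg male 1 highest among macrophages.

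A few genes made up much of each sum. Pola1, the catalytic subunit of polymerase alpha, gave 18.9% to 38.8% of the replication UMIs of a type, and Smc4, a condensin subunit, gave 50.3% of the mitosis UMIs of endocardial, 41.7% of lymphatic endothelial, 36.2% of fibroblast and 14.7% of cardiomyocyte nuclei. Pola1 spans 327389 bases and Smc4 29886 bases, and counts were not corrected for length. Without Smc4 the mitosis sum was 180 CPM in endocardial, 128.0 in fibroblast and 59.4 in cardiomyocyte nuclei, and without Pola1 the replication sum was 232 CPM in macrophages, 262 in endothelial and 57.1 in cardiomyocyte nuclei, so that endothelial nuclei then led the replication arm.

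Member by member, each type was compared with the mean of the 7 others by edgeR's quasi-likelihood test on UMIs summed per library and type, and a gene was called at a Benjamini-Hochberg adjusted p under 0.05 over 13989 genes. The filter on low counts kept 31 of the 45 members (282 or more UMIs over all types). The 14 others had 64 to 259 UMIs: Bub1, Bub1b, Aspm, Ube2c, Birc5, Aurka, Aurkb, Plk1, Mcm2, Mcm3, Mcm5, Rrm2, Uhrf1 and Dtl. A gene could pass through the type in which it was high, so counts over the 31 describe these genes and are not evidence about all 45.

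In cardiomyocytes 26 of the 31 tested members were lower and 2 higher than in the other types, where 36.6% of all genes were lower and 40.9% higher. The median log2 difference was -1.50 over the 31 and -0.004 over all genes. All 7 chromosome structure genes were lower. Top2a had 6 UMIs in 6556 cardiomyocyte nuclei, or 0.104, 0.0748, 0.163, 0.178 and 0.0928 CPM by library, against 45.1 ± 31.4 CPM (n = 5) in macrophages and 18.0 ± 4.74 in endothelial nuclei. Its log2 difference of -5.37 ± 1.12 (SE; edgeR adjusted p = 4.32e-05) rests on these few UMIs. Ncapg2, a condensin II subunit, stood at 0.728, 1.20, 1.79, 1.60 and 1.02 CPM, with a log2 difference of -2.57 ± 0.22, beside means of 5.99 CPM in pericytes to 18.3 CPM in macrophages. Among kinetochore genes, the motor Cenpe (0.458 ± 0.231 CPM, log2 difference -2.94 ± 0.45) was lower. Of the spindle genes 4 of 5 were lower, led by the motor Kif20b at 0.624 ± 0.207 CPM (-2.50 ± 0.35), and of the midzone genes 3 of 4, led by Kif23, the motor of the central spindle, with 12 UMIs and 0.232 ± 0.113 CPM (-3.72 ± 0.80). Without the library labelled Tg male 1, Top2a and Kif23 were not called.

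Replication genes of cardiomyocytes followed with 10 of 12 tested members lower. These were Mcm4, Mcm6 and Mcm7 of the licensing helicase, both tested genes of nucleotide supply (Rrm1, Tyms), Pcna, Pola1 and Prim1, and, at forks, Brip1 and Atad2. Atad2, a chromatin ATPase, showed the strongest difference, at 5.61, 5.54, 4.88, 3.92 and 7.24 CPM (log2 difference -2.39 ± 0.17, edgeR adjusted p = 8.56e-16), beside means of 19.9 CPM in smooth muscle to 64.4 CPM in endothelial nuclei, and its cardiomyocyte libraries overlapped with no other type's libraries. Kif15, Prc1 and Hells were not called, with log2 differences of -0.40, -0.21 and -0.12.

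The members called higher in cardiomyocytes were Gins2 and Cenpf. Gins2, a subunit of the helicase partner GINS, stood at 7.80, 7.93, 28.1, 9.09 and 13.2 CPM in cardiomyocytes, and the library labelled Tg female 2 was the highest there and in fibroblast (27.8 CPM), endothelial (31.8) and macrophage nuclei (21.9). Its log2 difference was 1.38 ± 0.20 (edgeR adjusted p = 1.04e-07), while its means in endocardial (16.6 CPM) and endothelial nuclei (18.0) were above the cardiomyocyte mean of 13.2. Cenpf, a kinetochore and nuclear matrix protein, stood at 4.26, 15.9, 9.92, 12.1 and 5.01 CPM in cardiomyocytes, below the means of macrophages (33.7), endothelial (14.4), pericyte and lymphatic endothelial nuclei (11.3 each). Its log2 difference of 0.84 ± 0.27 (edgeR adjusted p = 0.0056) was no longer called on library totals without the trimmed mean of M values (TMM), or without the library labelled Tg female 1 or Tg male 1. TMM matters most here: without it the median of all genes in cardiomyocytes moved from -0.004 to -0.58, the share of higher genes among those called fell from 52.8% to 30.5%, and 29 members were lower and 1 higher.

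**Figure D2:**
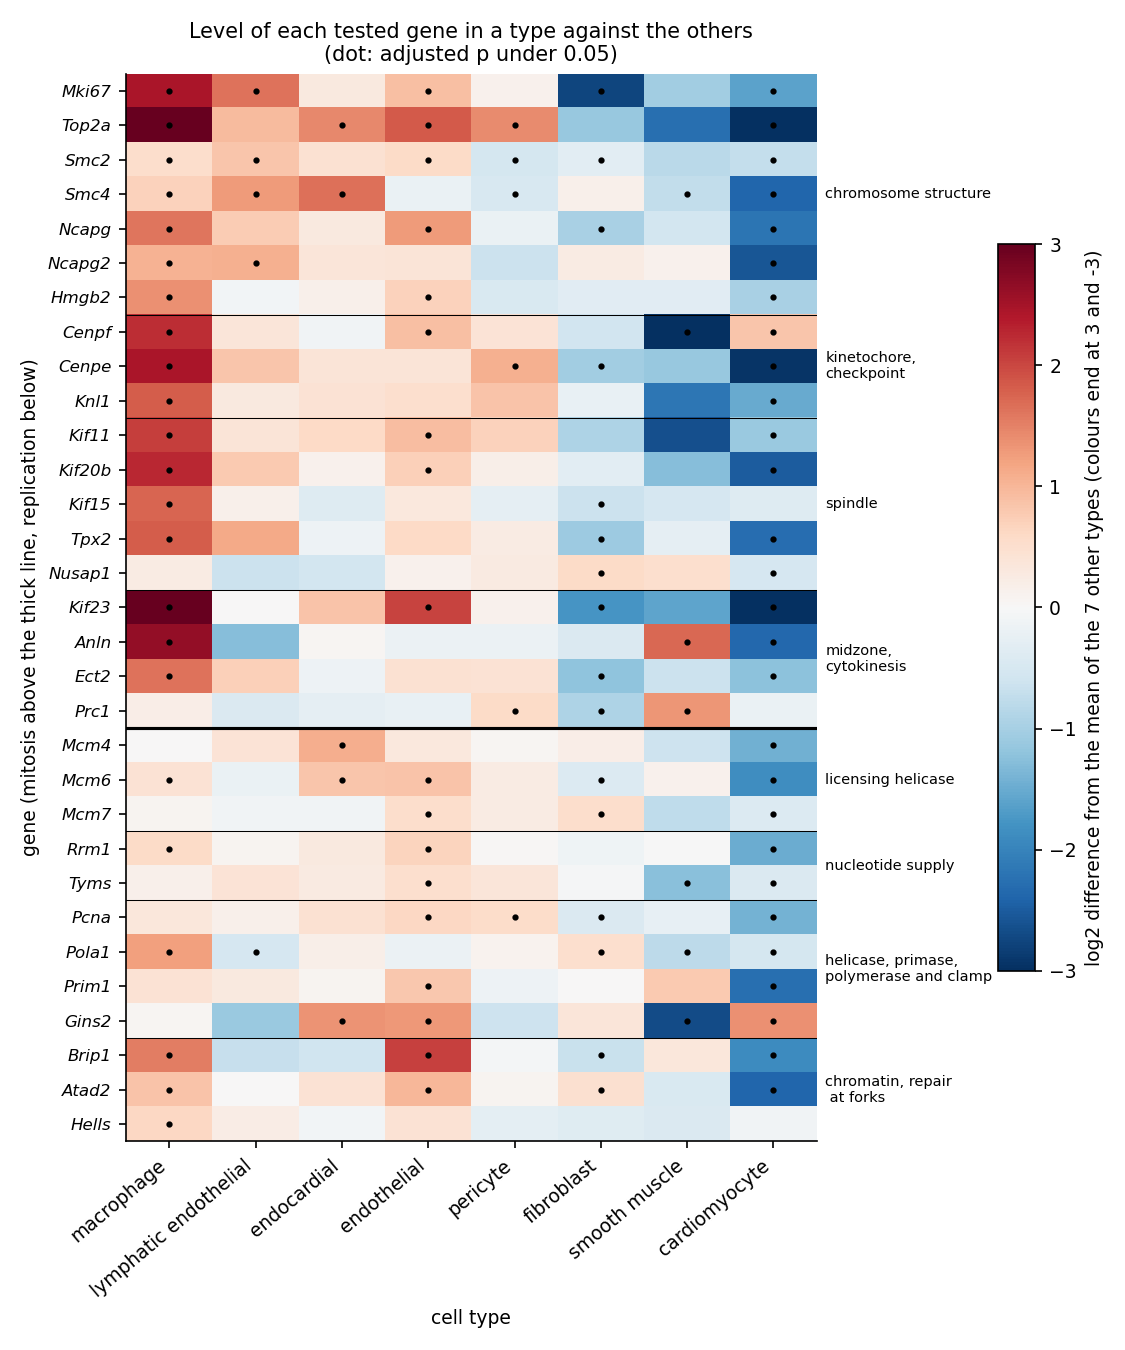
Log2 difference of each of the 31 tested members (rows, grouped by role) between a cell type (columns) and the mean of the 7 other types, in colour from -3 to 3, with a dot at an adjusted p under 0.05. The cardiomyocyte column is blue with dots for 26 genes and red for Gins2 and Cenpf, and the macrophage column is red with dots for 23 genes.

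Macrophages showed the opposite pattern, with 23 of 31 tested members higher and 0 lower, against 29.8% and 33.2% of all genes (median log2 difference 1.24 over the 31). No tested member was lower in macrophages by DESeq2 either, and 0 were lower at an unadjusted p under 0.05. Mitosis genes dominated, with 17 of 19 higher, and 6 of 12 replication genes were higher. Kif23 stood at 26.6, 34.8, 74.0, 67.2 and 39.8 CPM in macrophages (log2 difference 4.03 ± 0.30, edgeR adjusted p = 5.55e-15), and every macrophage library was above every library of the other types. Top2a stood at 30.2, 19.5, 88.5, 67.9 and 19.1 CPM (3.12 ± 0.34), with libraries labelled Tg female 2 and Tg male 1 well above the rest. Anln, the actin-binding anillin of the cleavage furrow, stood at 17.2, 27.2, 56.2, 25.9 and 17.6 CPM (2.63 ± 0.29). Among replication genes Brip1, a fork helicase, was higher by 1.53 ± 0.29 and Pola1 by 1.24 ± 0.09, whereas Mcm4, Mcm7 and Gins2 had log2 differences of 0.02, 0.09 and 0.05 and were not called.

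Endothelial nuclei had 18 of 31 tested members higher and 0 lower (background 29.4% and 26.5%; 0 lower at an unadjusted p under 0.05, and 1 lower by DESeq2), and here both arms had 9 called. Brip1 stood at 20.2, 26.0, 26.7, 27.8 and 14.9 CPM (log2 difference 2.05 ± 0.22, edgeR adjusted p = 2.39e-10), the highest mean of any type and more than the 17.9 ± 10.3 CPM of macrophages, though the libraries of these types overlapped. Kif23 (12.9 ± 1.52 CPM) was higher by 2.02 ± 0.34 and Top2a (18.0 ± 4.74 CPM) by 1.84 ± 0.35. Of the licensing helicase, Mcm6 and Mcm7 were higher, by 0.86 ± 0.14 and 0.52 ± 0.11.

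Fibroblasts divided the members, with 4 of 31 higher and 12 lower (background 30.2% and 25.0%). The mitosis arm had 9 of 19 lower and 1 higher, and the replication arm 3 each way of 12. Mki67, the perichromosomal protein behind the Ki-67 stain, stood at 0.161, 0.590, 1.88, 1.35 and 1.17 CPM (log2 difference -2.75 ± 0.49), beside 1.23 ± 0.888 CPM in cardiomyocytes. Kif23 (-1.77 ± 0.59) and Ect2, the guanine nucleotide exchange factor that starts the cleavage furrow (-1.21 ± 0.30), were also lower. Without the library labelled Tg male 1, 5 members were lower and Mki67 and Kif23 were not among those called, and without that labelled Tg female 1, 7 were lower. The higher ones were Nusap1, a spindle microtubule protein (26.9 ± 2.35 CPM, 0.57 ± 0.14), Mcm7 (0.52 ± 0.10), Pola1 (94.4 ± 9.13 CPM, 0.51 ± 0.08) and Atad2 (0.48 ± 0.13). On library totals without TMM the split was 6 higher and 7 lower, while the share of higher genes among all called rose from 54.7% to 69.5%.

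Endocardial nuclei had 5 of 31 members higher (16.1%) and 0 lower, both below the background of 22.1% and 15.2% of all genes. At an unadjusted p under 0.05, 1 member, Nusap1, was lower, and by DESeq2 0 were lower. Smc4 was at 191, 144, 129, 210 and 210 CPM, or 176 ± 38.1 (log2 difference 1.66 ± 0.12, edgeR adjusted p = 8.42e-15), above every library of fibroblasts (67.2 to 74.3 CPM) and of endothelial nuclei (46.9 to 68.4). Smc2, which pairs with Smc4 in condensin, had a log2 difference of 0.46 ± 0.19 there and was not called. Gins2 (1.35 ± 0.31), Mcm4 (1.09 ± 0.32), Mcm6 (0.83 ± 0.19) and Top2a (1.43 ± 0.52) were the other members called, and Top2a, at 23.8, 22.1, 20.6, 3.09 and 0 CPM, was not called without the library labelled nTg female 1 or Tg female 1. With TMM left out, 9 members were higher and the share of higher genes among all called was 71.4% in place of 59.3%.

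Lymphatic endothelial nuclei had 4 of 31 members higher (12.9%) and 1 lower (3.23%), both below the background of 19.1% and 17.4% of all genes. All 4 were chromosome structure genes: Mki67 (15.2 ± 9.34 CPM, log2 difference 1.63 ± 0.53), Smc4 (145 ± 36.7 CPM, 1.28 ± 0.15), Ncapg2 (1.06 ± 0.30) and Smc2 (0.83 ± 0.22). Mki67 lost its call without the library labelled nTg female 1 or Tg male 2, and Pola1 (-0.50 ± 0.15) was lower but not called without TMM, where the share of higher genes among all called was 70.4% in place of 52.3%. Pericytes had 4 of 31 higher (12.9%) and 2 lower (6.45%), both below the background of 23.7% and 21.2% of all genes. The higher ones were Top2a (1.42 ± 0.48), Cenpe (1.07 ± 0.36), Prc1, which bundles midzone microtubules (0.57 ± 0.22), and Pcna (0.55 ± 0.17). The lower ones were Smc2 (-0.53 ± 0.20) and Smc4 (-0.49 ± 0.15). Each of the calls for Top2a, Cenpe, Prc1, Smc2 and Smc4 in pericytes was lost without at least 1 library, and 2 members were higher without that labelled Tg female 2 or Tg male 1, while 1 or 4 were lower. Smooth muscle had 2 of 31 higher (6.45%) and 5 lower (16.1%), beside 19.0% and 15.8% of all genes, so below and near the background. Prc1, at 27.7, 21.0, 80.0, 27.2 and 34.5 CPM (1.31 ± 0.31), and Anln, at 15.4, 19.2, 5.33, 17.0 and 0 CPM (1.72 ± 0.57), were higher. Among the lower ones Cenpf rested on 1 UMI (0.610 CPM, exact Poisson interval 0.0154 to 3.40) and Gins2 on 2 UMIs (1.22 CPM, 0.148 to 4.41), so no fold is given for them. Smooth muscle calls for Anln, Gins2 and Tyms were lost without at least 1 library, with 1 member higher without that labelled nTg female 1, Tg female 1 or Tg male 1, and without TMM 8 members were lower and 43.0% of all called genes were higher in place of 54.6%.

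When the members and the other cell-cycle genes were kept among the genes used for clustering, a cluster of 130 nuclei led by Top2a, Diaph3 and Mki67 formed apart and stayed unnamed. Clusters of 1025 nuclei led by Sema3g and Gja5, with endothelial as the best score, 659 led by Dkk3 and 72 led by Nxpe2 stayed unnamed as well. The nuclei of the named types thus changed by more than the 130. Then 24 members could be tested, with 15 lower and 3 higher in cardiomyocytes (36.1% and 41.1% of all genes), 13 higher and 2 lower in macrophages (31.3% and 30.7%) and 4 lower and 5 higher in fibroblasts (25.1% and 29.8%). With no filter on low counts all 45 members were tested, with 34 lower and 2 higher in cardiomyocytes (19.9% and 32.2% of all genes) and 35 higher in macrophages (19.9%).

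A further 84 genes of the same processes, none of them members, were listed and 50 of them passed the filter. In cardiomyocytes 30 were lower and 10 higher, where 36.6% and 40.9% of all genes were: of 31 replication genes 19 were lower and 5 higher, and of 19 mitosis genes 11 were lower and 5 higher. Macrophages had 26 of the 50 higher and 7 lower (29.8% and 33.2% of all genes), endothelial nuclei 19 and 3 (29.4% and 26.5%) and pericytes 14 and 2 (23.7% and 21.2%). Fibroblasts had 8 and 9 (30.2% and 25.0%), lymphatic endothelial nuclei 6 and 2 (19.1% and 17.4%), endocardial nuclei 5 and 3 (22.1% and 15.2%) and smooth muscle 2 and 6 (19.0% and 15.8%), so these counts lie near or below the background.

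A summed level does not say whether many nuclei hold a little or few hold much, so detection was compared after each nucleus was thinned to 1000 UMIs and nuclei with UMIs of at least 3 different mitosis members were counted. Such nuclei were 53 of 2424 macrophages (2.19%, exact Clopper-Pearson interval 1.64 to 2.85), 10 of 1318 endocardial (0.759%, 0.364 to 1.39), 50 of 6757 endothelial (0.740%, 0.550 to 0.974), 4 of 755 lymphatic endothelial (0.530%, 0.145 to 1.35), 10 of 2125 pericyte (0.471%, 0.226 to 0.864) and 17 of 12012 fibroblast nuclei (0.142%, 0.0825 to 0.227). Cardiomyocytes had 0 of 6494, which allows a share of up to 0.0462%, and smooth muscle 0 of 504, which allows up to 0.595%. These intervals and limits cover counting error only. The lymphatic endothelial share was 0.339% without the library labelled Tg male 1. By library the macrophage nuclei were 7 of 453, 5 of 480, 17 of 434, 17 of 544 and 7 of 513, again highest in the libraries labelled Tg female 2 (3.92%) and Tg male 1 (3.13%). The macrophage share was above the fibroblast share in 5 of 5 libraries. In the library labelled nTg female 1 the endocardial share was above the macrophage share. There 3 of 220 endocardial and 4 of 453 macrophage nuclei had at least 5 mitosis members.

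At full depth 78 of 6556 cardiomyocyte nuclei (1.19%) had at least 3 mitosis members, but 4 had at least 5 and the most in a nucleus was 7. Macrophages had 103 of 2560 with at least 3, of which 56 had at least 5, and up to 26 of the 27. Endothelial, pericyte, lymphatic endothelial, endocardial and fibroblast nuclei reached 23 to 25. The nuclei with several mitosis members at equal depth held markers of their own type at a lower level than nuclei with no mitosis member. The own list stood at 10092 CPM against 17066 in macrophages, 6051 against 11346 in endothelial, 6400 against 11135 in pericyte, 9022 against 12774 in lymphatic endothelial and 8796 against 10200 in fibroblast nuclei. In the 10 endocardial nuclei the own list stood at 2767 against 9009 CPM, and the endothelial list (4713 CPM) was above it. The part of doublets or free RNA in these shares was not tested.

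**Figure D3:**
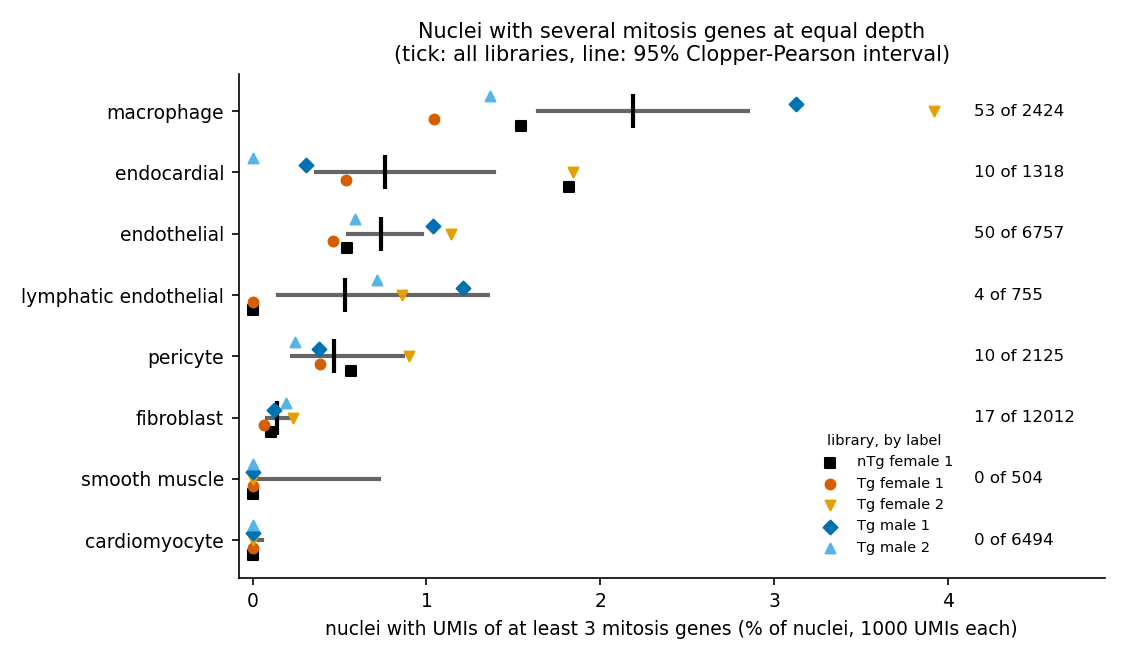
Share of nuclei with UMIs of at least 3 mitosis genes after thinning to 1000 UMIs, by cell type; points are libraries, ticks are all libraries together and lines are 95% Clopper-Pearson intervals. Macrophages lie at 2.19%, cardiomyocytes and smooth muscle at 0 in every library.

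Members differed in how far their transcripts were bound to such nuclei. For each member the 8 types were pooled, and nuclei with at least 3 other mitosis members were set against nuclei with 0 others. Top2a was detected in 58.5% of 142 such nuclei and in 0.065% of 27684 without, so that 74.8% of all its detections lay in the former. Bub1, a checkpoint kinase, was detected in 8.33% against 0.0072%, with 75% of its detections in nuclei with several others, and Mki67 in 27.5% against 0.126%. At the other end Smc4 was detected in 43.8% against 5.30%, and 3.12% of its detections lay in nuclei with several others. Nusap1 (1.61%), Smc2 (1.35%) and Hmgb2 (1.33%) were also comparatively frequent in nuclei without others.

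Replication members are not part of that definition, and they too were more frequent in the 144 nuclei with several mitosis members: 100 of them (69.4%) had a UMI of at least 1 replication member, against 18.4% of 27666 nuclei with no mitosis UMI. By library the shares were 72.7%, 77.8%, 59.5%, 75.6% and 66.7%, against 16.9% to 20.6%, so the groups did not overlap. By type the share was 80% against 22.5% in endothelial, 67.9% against 22.3% in macrophage and 41.2% (7 of 17) against 21.4% in fibroblast nuclei. Dtl, the ubiquitin ligase adaptor that limits licensing, was detected in 11.1% against 0.047%, and Rrm2, the regulated subunit of ribonucleotide reductase, in 4.86% against 0.090%. Atad2 (42.4% against 3.47%) and Pola1 (24.3% against 5.91%) were common in both. Gins2 was detected in 4 of 144 (2.78%, interval 0.762 to 6.96) against 1.28%, a difference within its counting interval, and Ccna2 in 2.78% against 1.65%. The types were pooled here, and cardiomyocytes gave 6071 of the 27666 nuclei and 0 of the 144. Among nuclei with no mitosis UMI, the Ccna2 share was 0.056% in the library labelled Tg female 1 and 1.06% to 3.62% in the others. The pooled shares of Gins2 and Ccna2 therefore do not say how these genes stand within a type.

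**Figure D4:**
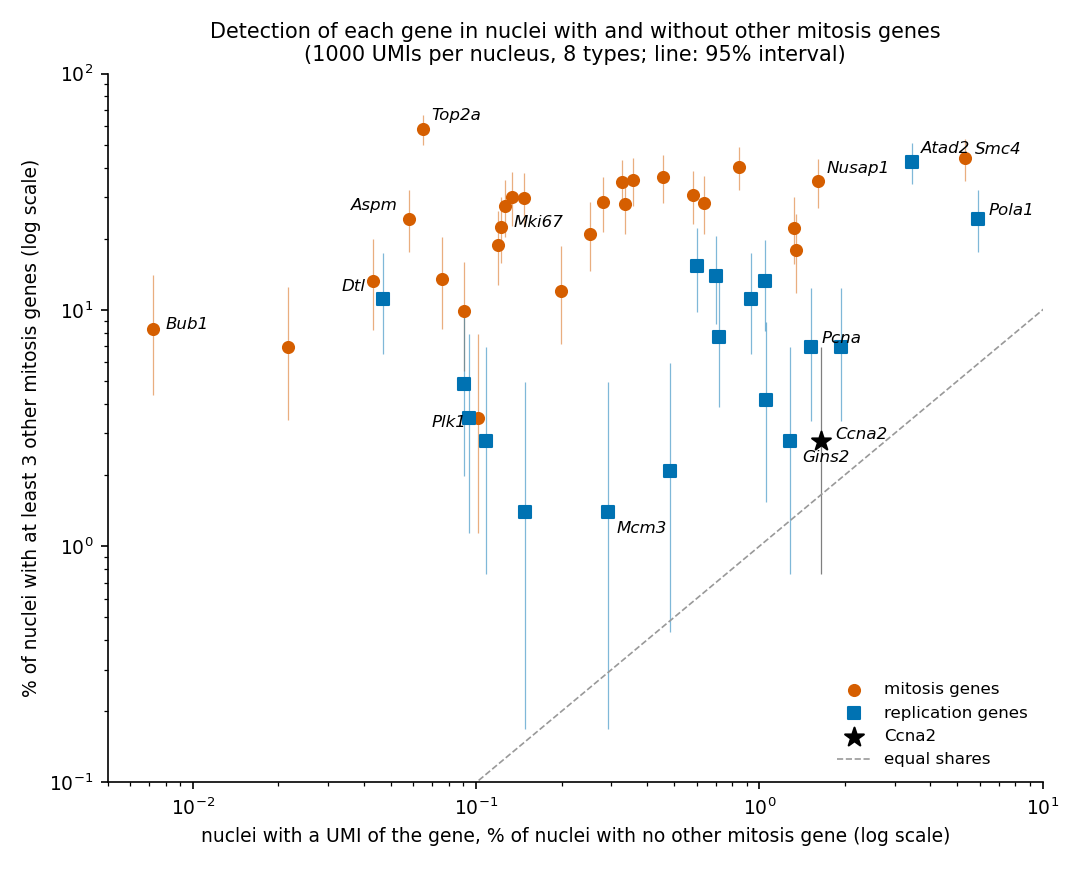
For each of the 45 members and Ccna2, the share of nuclei with a UMI of the gene among nuclei with at least 3 other mitosis genes (vertical axis, log scale, with 95% intervals) against the share among nuclei with none of the others (horizontal axis, log scale), at 1000 UMIs per nucleus; the dashed line marks equal shares. Top2a and Bub1 lie farthest above the line, and Gins2 and Ccna2 lie near it. Types are pooled, and cardiomyocytes are present only among the nuclei on the horizontal axis.

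Most cardiomyocyte detections of a mitosis member were alone in their nucleus. Of 60 cardiomyocyte nuclei with a Cenpf UMI at equal depth, 4 had another mitosis member (6.67%, exact interval 1.85 to 16.2), against 23 of 51 in macrophages (45.1%, 31.1 to 59.7) and 21 of 50 in endothelial nuclei (42%, 28.2 to 56.8). At this depth any mitosis UMI was found in 6.51% of all cardiomyocyte, 25.2% of all macrophage and 14.3% of all endothelial nuclei. The shares were not corrected for these levels. For Prc1 the counts were 8 of 62 in cardiomyocytes, 5 of 37 in pericytes and 20 of 33 in macrophages, and for Nusap1 4 of 55 in cardiomyocytes, 32 of 291 in fibroblasts, 7 of 35 in pericytes, 0 of 12 in smooth muscle and 27 of 35 in macrophages, so detection without other members was not particular to cardiomyocytes. Top2a was detected in 0 of 6494 cardiomyocyte nuclei and in 43 of 2424 macrophage nuclei (1.77%) at the same depth. The Smc4 of endocardial nuclei was mostly alone as well: it was detected in 208 of 1318 nuclei (15.8%), of which 21 (10.1%) had another mitosis member.

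In the order of detection at equal depth, macrophages were highest for 21 of 27 mitosis and 7 of 18 replication members. Some of these places rest on few nuclei, such as the 5 macrophage nuclei with Bub1 and the 5 with Ube2c. Cardiomyocytes and smooth muscle were each lowest for 11 of the mitosis members, and for 10 and 6 of the replication members. The order was not counted over all genes, so these counts have no background.

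On the GENCODE vM21 annotation of GRCm38, 7 of the 45 members overlap another counted gene, 6 of them on the opposite strand: Gins2 with Gse1, Prc1 with Rccd1, Mcm7 with Cops6 and Ap4m1, Nusap1 with Oip5, Ncapg with Lcorl and Ube2c with Tnnc2. Whether counting used strand is not given in the sources used here, so reads of these pairs may not be told apart. Gse1 (389 ± 59.7 CPM in endocardial, 291 ± 64.8 in endothelial, 276 ± 47.3 in cardiomyocyte and 190 ± 48.6 in fibroblast nuclei, 132 or less elsewhere) was highest in the same 4 types as Gins2. Rccd1 was highest in smooth muscle (54.4 ± 15.5 CPM), as was Prc1 (38.1 ± 23.9). By library Rccd1 stood there at 70.7, 61.2, 37.3, 64.6 and 38.3 CPM, lowest in that labelled Tg female 2, where Prc1 was highest. Gse1 was highest in that library in cardiomyocytes and fibroblasts, as was Gins2, but not in endothelial or macrophage nuclei. The part of Gse1 and Rccd1 in the Gins2 and Prc1 values was not tested.

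Between the sexes, within the 4 libraries labelled Tg (2 female, 2 male), edgeR's quasi-likelihood test called 0 members in each of the 8 types. Ccna2 stood in cardiomyocytes at 0.524 and 827 CPM in the female and at 232 and 143 CPM in the male libraries. The sexes were thus not matched in Ccna2, although the label is the same. The background was as low: 0.0265% of genes were called in cardiomyocytes, 0.247% in endocardial, 0.138% in endothelial, 0.479% in fibroblast, 0.198% in lymphatic endothelial, 0.195% in macrophage, 0.155% in pericyte and 0.14% in smooth muscle nuclei. At an unadjusted p under 0.05 the counts were 2 of 26 tested members in cardiomyocytes, 3 of 16 in endocardial, 5 of 38 in endothelial, 5 of 31 in fibroblast, 0 of 5 in lymphatic endothelial, 1 of 35 in macrophage, 2 of 15 in pericyte and 0 of 1 in smooth muscle nuclei, and DESeq2 called 0. In cardiomyocytes Uhrf1, the reader of hemimethylated DNA, stood at 0.150 and 0.325 CPM in the female and 1.25 and 2.04 CPM in the male libraries (log2 difference female minus male -2.93 ± 0.71, edgeR adjusted p = 0.438), without overlap. Hmgb2, a chromatin protein, stood at 4.94 and 3.09 against 7.66 and 6.87 CPM (-0.84 ± 0.32, edgeR adjusted p = 0.658). In fibroblasts Gins2 stood at 8.97 and 27.8 CPM in the female and 6.10 and 6.35 in the male libraries (1.45 ± 0.48, edgeR adjusted p = 0.316), and the kinetochore scaffold Knl1 at 9.92 and 11.3 against 6.91 and 4.01 CPM (0.85 ± 0.32, edgeR adjusted p = 0.420). A test of whether the sex difference varied by type called 0 of 32 members in each type. At an unadjusted p under 0.05 it marked 0 to 8 members. No share of all genes is set beside this test or beside the unadjusted counts by sex, so they are not read as an excess or a lack.

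Cyclin A2 acts with its kinase in replication and early mitosis, so cardiomyocyte nuclei with at least 10 Ccna2 UMIs were compared with those with 0. The former were 329 nuclei, by library 109, 0, 114, 70 and 36, so the library labelled Tg female 1 was left out and the values below are of the 4 others in the same order. Summed mitosis genes stood at 52.0, 62.4, 70.3 and 53.2 CPM in the Ccna2-rich nuclei and 61.2, 79.3, 75.4 and 62.2 in those with 0, lower in 4 of 4 libraries. Summed replication genes stood at 72.7, 97.0, 78.1 and 62.8 CPM against 82.5, 107.6, 81.4 and 91.9, also lower in 4 of 4. With library as a block, edgeR called 0 of the 15 members tested (background 0.261% of 11879 genes), 0 were under an unadjusted p of 0.05, and DESeq2 called 0. The members with the smallest p were Atad2 (1.04, 5.58, 0 and 4.83 CPM in rich nuclei against 6.11, 4.75, 4.13 and 7.46; log2 difference -0.99 ± 0.54, edgeR adjusted p = 0.874), Cenpf (-0.65 ± 0.39, 0.892) and Smc4 (-0.46 ± 0.34, 0.964). The rich nuclei held 22 to 56 mitosis UMIs per library, which limits what these tests can detect. At 1000 UMIs 15 of the 329 (4.56%) had a mitosis UMI and 0 had 2 different members, which allows a share of up to 0.912%, beside 16 of all 6494 cardiomyocyte nuclei with 2.

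**Figure D5:**
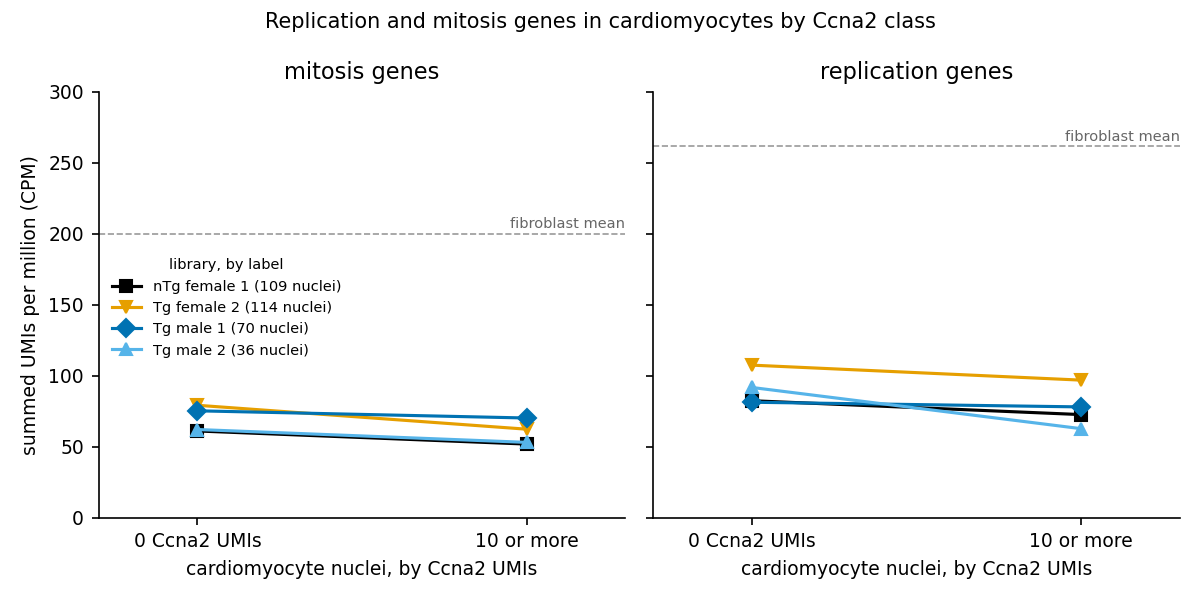
Summed CPM of the mitosis genes (left) and replication genes (right) in cardiomyocyte nuclei with 0 and with 10 or more Ccna2 UMIs; lines join the 2 classes of a library, and the dashed line is the fibroblast mean of 200 or 262 CPM. The Ccna2-rich class is lower in each of the 4 libraries and both classes lie under the fibroblast mean.

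The genotype label could be read in cardiomyocytes from 1 library labelled nTg and 4 labelled Tg, so there is no test, and the labels are those that Ccna2 contradicts. A gene counted as apart when it was 2-fold from the mean of the 4 and outside their range, with at least 10 CPM in the higher arm, which held for 0.948% of 8860 genes. Of 5 members considered, Cenpf alone was apart, at 4.26 CPM (exact Poisson interval 3.06 to 5.78) in the library labelled nTg female 1 against 15.9, 9.92, 12.1 and 5.01. With the library labelled Tg female 1 left out, Gins2 was apart and Cenpf was not.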

How the data were processed

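Nuclei from homogenized adult heart were profiled in 8 libraries, and the deposited values are raw UMI counts per gene and barcode, made with Cell Ranger 7.0.0 per the file headers and on mm10 per the submitters' processing notes. The 45 members and all other gene lists were chosen with earlier results of these data known. Barcodes with at least 200 genes and at most 5% mitochondrial counts were kept. Doublets were called by Scrublet in scanpy 1.11.5 and removed (7.632% to 9.682% of a library). In the library labelled Tg female 2 the caller's own threshold marked 0%, so the median threshold of the other 4 (0.1491) was used, which removed 11.38%. Clustering used 2000 variable genes, 30 components, 15 neighbours and Leiden resolution 1 (leidenalg 0.10.2), and 506 nuclei in 2 clusters stayed unnamed. Counts were summed per library and type, and edgeR 4.0.16 in R 4.3.3 tested each type against the mean of the other 7 with library as a block, the sexes without a block, and Ccna2 classes with library as a block, each over all genes passing the filter on low counts. DESeq2 1.42.0, no TMM, no filter, doublets kept, other clusterings and thinning depths, and leaving out each library were alternatives. CPM is counts per 1000000 of a type's summed counts, and ± after a CPM is the SD over libraries. Shares have 95% exact Clopper-Pearson intervals, and a count of 0 allows up to 3 counts. Per type the members named are the called ones with at least 20 UMIs in the type or in the others, the 3 highest and 3 lowest by log2 difference (6 each way in cardiomyocytes). For sex they are the 2 with the smallest p in cardiomyocytes and in fibroblasts, and for Ccna2 classes the 3 with the smallest p. Other members named in the text were chosen after their values were seen.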

Additional observations from a re-analysis of the deposited data

Results flagged for a closer look

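Among the 4 libraries labelled Tg, 66 values were examined for a library far from the other 3, and 8 were marked, where chance marks about 1 in 20. The library labelled Tg female 2 stood apart in 4 of them: summed replication members in endothelial nuclei (381.6 CPM, the others 305.2 to 314.7), summed mitosis members in pericytes (365.3 CPM, 190.4 to 216.4), Gins2 in fibroblasts (27.85 CPM, 6.097 to 8.974) and Smc4 in cardiomyocytes (6.83 CPM, 9.977 to 10.55). The library labelled Tg female 1 stood apart for Pola1 in fibroblasts (109.8 CPM, 87.65 to 91.23) and for Cenpf in smooth muscle, where its 1.749 CPM is 1 UMI and the others had 0. Ect2 in fibroblasts was low in the library labelled Tg male 1 (1.897 CPM, 3.175 to 3.424), and Brip1 in endothelial nuclei was low in that labelled Tg male 2 (14.92 CPM, 26.01 to 27.85).

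In data outside the comparisons, a cluster of 82 nuclei that stayed unnamed, led by Top2a, Nxpe2, Oprm1, Kif23 and Cd86, held 6 nuclei with several mitosis members at equal depth (7.32%). It stayed unnamed because its endothelial (1.282) and macrophage (1.088) marker scores were close. Of its 82 nuclei, 43 came from the library labelled Tg female 2, and its median depth was 5248 UMIs. The part of doublets in this share was not tested.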

How the results depend on the processing

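No called difference of a named member changed sign under the alternatives run, but counts and orders of types changed. With cell-cycle genes kept in the clustering the members called in pericytes were 2 higher and 5 lower, in place of 4 higher and 2 lower. The main counts were below the 23.7% and 21.2% of all genes, and no such share is given for pericytes in this setting. The change is therefore not read as a reversal. Without Smc4 endothelial nuclei passed lymphatic endothelial and endocardial ones in the mitosis sum, and pericytes passed endocardial ones. Without Pola1 endothelial nuclei passed macrophages in the replication sum, and lymphatic endothelial nuclei passed pericytes. With library totals in place of TMM, members called were 1 higher in cardiomyocytes, 9 higher in endocardial nuclei, 7 lower in fibroblasts, 0 lower in lymphatic endothelial nuclei and 8 lower in smooth muscle. DESeq2 called 1 lower in endothelial nuclei. Without a filter on low counts 35 were higher in macrophages and 2 lower in lymphatic endothelial nuclei, and by sex 3 were called in endocardial and 1 each in endothelial, fibroblast and pericyte nuclei. With doublets kept, 9 were higher in endocardial nuclei and 2 in pericytes, summed mitosis members stood at 77.1 CPM in cardiomyocytes and summed replication members at 191.5 CPM in smooth muscle. With cell-cycle genes kept in the clustering, 15 were lower in cardiomyocytes, 3 in endothelial nuclei, 4 in fibroblasts, 2 in lymphatic endothelial nuclei and 5 in pericytes, and 13 were higher and 2 lower in macrophages and 2 higher in pericytes. Counts given here without a share of all genes show how the calls moved and are not read as results about the members. The cause of these changes was not tested.

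Leaving out each library in turn gave 1 to 2 members higher in cardiomyocytes, 5 to 10 lower in fibroblasts, 1 to 2 lower in lymphatic endothelial nuclei, 2 to 3 higher and 1 to 4 lower in pericytes, and 1 to 2 higher in smooth muscle. By sex it gave 0 to 2 members in endocardial, fibroblast and pericyte nuclei, and by the genotype label 1 to 2 lower. The libraries labelled Tg female alone gave 2 lower by that label. Of the values for named members, 394 by type kept their call and 42 lost it, 34 by sex stayed uncalled and 2 were called, and 21 by Ccna2 class stayed uncalled.

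The replicate number as a block in the sex comparison called 1 member, in pericytes, and no member elsewhere. To look for pairing, the difference of each gene between replicate 1 and replicate 2 was taken within each sex, per type. These differences were then correlated between the sexes over genes, which uses 2 same-numbered pairs. The coefficient was -0.026 in smooth muscle to 0.132 in endothelial nuclei, and it does not compare whole expression levels of libraries. Separately, the labels give libraries a number and state no pairing.

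As the mean share per nucleus, summed mitosis members in endothelial nuclei stood at 227.4 CPM. An alternative chosen after seeing the data left out the member with the most UMIs. Without Pola1 the replication sum was 57.1 CPM in cardiomyocytes, 200.6 in endocardial, 262.4 in endothelial, 167.3 in fibroblast, 162.9 in lymphatic endothelial, 231.6 in macrophage, 158.3 in pericyte and 103.5 in smooth muscle nuclei. Without Smc4 the mitosis sum was 59.4 CPM in cardiomyocytes, 179.5 in endocardial, 229.6 in endothelial, 128.0 in fibroblast and 213.3 in lymphatic endothelial nuclei. It was 492 CPM in macrophage, 190.5 in pericyte and 127.5 in smooth muscle nuclei.

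Nuclei with at least 2 in place of 3 mitosis members were 0.246% in cardiomyocytes, 1.97% in endocardial, 1.85% in endothelial, 1.10% in fibroblast, 2.38% in lymphatic endothelial, 5.20% in macrophage, 1.08% in pericyte and 1.39% in smooth muscle nuclei. At 2000 UMIs the share with at least 3 was 1.48% in endocardial, 1.54% in endothelial, 0.377% in fibroblast, 1.71% in lymphatic endothelial and 4.33% in macrophage nuclei, and at 500 UMIs 0.535% in endothelial and 1.56% in macrophage nuclei. Depth limits the low members, since 14 of the 45 had too few UMIs for the test by type.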

Other observations

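Some genes of the same processes that are no members went the other way in cardiomyocytes, and the following were chosen after their values were seen. Sgo2a, the shugoshin that protects centromeric cohesion, stood at 23.4 ± 3.22 CPM in cardiomyocytes and at 1.95 ± 0.19 CPM (SD, n = 5) in fibroblasts, and its libraries did not overlap (log2 difference from the other types 4.30 ± 0.21, edgeR adjusted p = 5.85e-21). Cenpa, the centromeric histone, stood at 28.7 ± 6.56 CPM in cardiomyocytes, 4.81 ± 0.71 in fibroblasts and 33.6 ± 8.15 in macrophages (log2 difference in cardiomyocytes 2.00 ± 0.15). Ncapd2, a condensin I subunit, stood at 21.1 ± 2.85 CPM in cardiomyocytes and 11.1 ± 2.49 in fibroblasts (1.48 ± 0.14), whereas the condensin members Smc2, Smc4, Ncapg and Ncapg2 were called lower in cardiomyocytes. Sgo2a overlaps Kctd18 on the opposite strand and Ncapd2 overlaps Gm28967 on its own strand, and the part of these overlaps was not tested.

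Types with too few nuclei for a test were described by their sums. Mitosis members stood at 533 ± 166 CPM in 125 T or NK-like nuclei, 545 ± 612 in 73 B cell-like nuclei and 177 ± 50.4 in 181 Schwann-like nuclei, and replication members at 404 ± 86.0, 418 ± 253 and 152 ± 31.0 CPM.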
